A study of Mus musculus with 2 samples.

Results

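The genes described here are 48 genes of DNA replication and entry into S phase, the part of the cell cycle in which the genome is copied. They were chosen by name, from the origin of replication to chromatin assembly behind the fork, and all 48 were found among the 21145 genes of the deposited table. Messenger RNA had been sequenced from AML12, a nontumorigenic mouse hepatocyte line that was founded, as background, from mice carrying a transgene for the growth factor TGF-alpha under a metallothionein promoter (CD1/MT42 in the labels). Cells at passages 14 to 16 had been infected with a lentivirus that expresses the long noncoding RNA H19 (Lv-H19) or with a control virus (Lv-NC). Both lines were selected with 0.5 mg/ml of puromycin and kept in DMEM with fetal serum and 0.25 mg/ml of puromycin. There was 1 library per group, called the control library and the H19 library below, and the labels name no separate cultures or clones. Replicate error is thus unknown for every value, nothing could be tested, and each difference describes these 2 libraries alone.

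Replication begins when the origin recognition complex, with Cdc6 and Cdt1, loads the ring of Mcm2 to Mcm7 onto DNA in G1, a step called licensing. At the start of S phase, kinases driven by cyclin E and other cyclins turn the loaded ring into an active helicase by adding Cdc45 and the GINS complex. Most genes of this pathway are transcribed in late G1 under E2F factors, whereas adult liver cells in the animal rarely divide and a growing line such as AML12 replicates its DNA in each cycle.

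Levels are in FPKM, the fragments of a transcript per kilobase of its length and scaled to the mapped fragments, and the control library's value comes before that of the H19 library. The difference is log2(FPKM + 1) of the H19 library minus that of the control, which understates differences of low genes. A gene was called measured at a mean FPKM of at least 1 over both libraries, which 11674 genes and all 48 members reached. H19 itself had a deposited value of 0 in the control and of 4.72 FPKM where its virus was used. Genes above 0 numbered 19595 in the control and 19063 with H19, and the sources used here give no read depth. Because bulk RNA was sequenced, a different share of cells in S phase and a different amount of RNA per cell cannot be told apart.

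The 48 genes were expressed in both libraries and differed little between them. None reached a 2-fold difference, which 1.14% of all measured genes did upward in the H19 library and 1.57% downward. A 1.5-fold excess in the H19 library (a log2 difference of 0.585 or more) was seen for 5 of 48 (10.4%), beside 8.99% of all measured genes, and a 1.5-fold deficit for 0 of 48, beside 6.21%. The 5 were Mcm10, Gins3, Orc6, E2f2 and Fen1. By sign alone, 36 of 48 (75.0%) were higher in the H19 library and 12 lower, against 58.9% and 41.1% of all measured genes. The median difference was 0.18 and the mean 0.20, with quartiles at 0.01 and 0.48, whereas all measured genes had a median of 0.08 and quartiles at -0.18 and 0.33. Above the upper quartile of all measured genes lay 16 of the 48, below the lower quartile 5 and between them 27.

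Levels ran from 1.20 FPKM for E2f2 to 101 FPKM for Pcna in the control library, a highest-to-lowest ratio of 83.6 that was 62.1 in the H19 library. The order of the genes by level was much the same in both libraries. As a description over the 48 genes, which are no replicates of each other, the libraries correlated with Pearson's r of 0.968 on the log2 scale and Spearman's rho of 0.957. The summed level was 941 FPKM in the control and 1099 FPKM with H19. The difference of a gene followed neither its level (r = 0.032, rho = 0.066) nor its exonic length (r = -0.114, rho = -0.124) closely across the 48 genes.

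**Figure D1:**
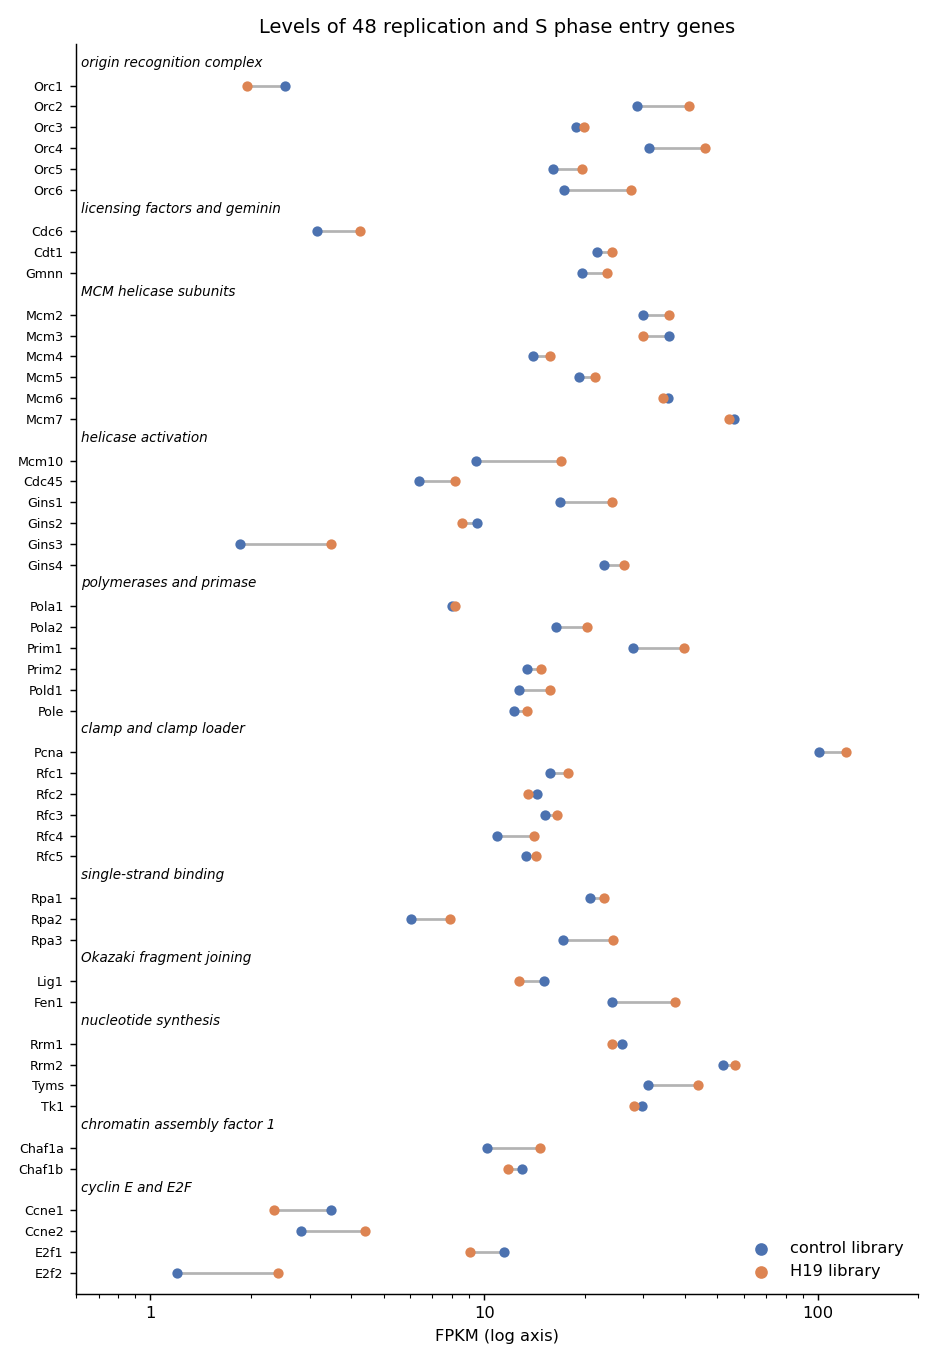
FPKM (log axis) of each of the 48 genes in the control library (blue) and the H19 library (orange), grouped by role, with a grey line joining the 2 values of a gene. Pcna is the highest gene in both libraries, and most pairs of points lie close together, with long lines for Mcm10, Gins3, Orc6 and E2f2, and there is 1 library per group and so no error bar.

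The origin recognition complex marks the sites where replication can start. Its genes had a median difference of 0.39, and 5 of 6 were higher in the H19 library. Orc6, the smallest subunit, was at 17.3 and 27.6 FPKM, a difference of 0.64 that exceeded that of 93.2% of measured genes. It shares 6.93% of its exonic bases with Vps35 on the opposite strand, which was at 138 and 133 FPKM. Whether reads of Vps35 entered the Orc6 value was not tested. Orc4, a subunit of the ATP-binding ring, was at 31.1 and 45.8 FPKM (0.55), and Orc2 at 28.6 and 41.1 FPKM (0.51). Orc2 and the gene on the opposite strand, Nif3l1, share 29.8% of the exonic bases of Orc2, and Nif3l1 was itself at 22.7 and 38.5 FPKM. Whether reads of Nif3l1 entered the Orc2 value was not tested. Orc5, another ring subunit, was at 16.1 and 19.6 FPKM (0.27), and Orc3 was at 18.8 and 19.9 FPKM (0.08), a difference close to the median of all measured genes and below 0 with equal upper quartiles.

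Orc1 had the opposite sign. It is the ATPase subunit that is made and degraded with the cell cycle, and it was at 2.53 and 1.95 FPKM, a difference of -0.26. It was the lowest subunit of the complex in both libraries, while Orc4 was the highest. The ratio of the highest to the lowest subunit was 12.3 in the control and 23.5 with H19. Orc6 stood at 6.85 times the level of Orc1 in the control and at 14.1 times with H19.

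Licensing factors were close to the middle of the 48 genes. Cdc6, the ATPase that brings the helicase ring to the origin, was at 3.16 and 4.26 FPKM (0.34). Cdt1, which delivers the ring, was at 21.8 and 24.2 FPKM (0.14), and Gmnn, which encodes geminin, the inhibitor that binds Cdt1, was at 19.7 and 23.3 FPKM (0.23). The ratio of Cdt1 to Gmnn was 1.10 in the control and 1.04 with H19, so activator and inhibitor kept nearly the same proportion in these 2 libraries. The deposited locus of Cdt1 is a single interval that also holds Gins2.

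The 6 subunits of the helicase ring barely differed. Their summed level was 190.3 FPKM in the control and 192 FPKM with H19, a ratio of 1.01. Of the 6 subunits, 3 were higher and 3 lower, and the median difference was 0.05, which was below 0 with the median of all genes set to 0, with TPM and with equal upper quartiles. Mcm2 was at 29.9 and 35.8 FPKM (0.25), Mcm4 at 14.0 and 15.8 FPKM (0.17) and Mcm5 at 19.2 and 21.5 FPKM (0.15). Mcm6 was at 35.6 and 34.3 FPKM (-0.05), Mcm7 at 56.0 and 54.2 FPKM (-0.05) and Mcm3 at 35.7 and 30.0 FPKM (-0.24). Mcm4 was the lowest and Mcm7 the highest subunit in both libraries, although the ring itself contains each subunit in equal number. The ratio of Mcm7 to Mcm4 was 4.01 in the control and 3.43 with H19.

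E2F factors bind sites of the forms TTTCCCGC, TTTCGCGC, TTTGCCGC and TTTGGCGC, and the promoters of the ring genes show them. Promoters here are RefSeq sequences on GRCm38.p6 from 250 bases before to 50 bases after the transcription start, searched on both strands, and they were at hand for 39 of the 48 genes. Positions are counted from the RefSeq start, which equals a GENCODE transcript start for 16 of the 47 promoters of these genes, so that a promoter can lie partly or wholly within the gene span given on GENCODE coordinates. Of the 5 ring genes with a promoter, Mcm3, Mcm5, Mcm6 and Mcm7 held at least 1 match and Mcm2 held none. The matches are shown in capitals with the bases around them, 5′ to 3′ on the strand of the gene, because these 4 of the 6 ring genes hold them, with differences from -0.24 for Mcm3 to 0.15 for Mcm5.
Mcm3 (chr1:20820275-20820304, minus strand): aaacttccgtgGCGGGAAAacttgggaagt
Mcm5 (chr8:75109345-75109374, plus strand): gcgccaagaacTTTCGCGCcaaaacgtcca
Mcm6 (chr1:128359734-128359763, minus strand): gattggacgggTTTGGCGCgaagtagctca
Mcm7 (chr5:138171849-138171878, minus strand): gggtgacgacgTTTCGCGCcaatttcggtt

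The Mcm3 match begins 20 bases into the transcript and reads on the opposite strand, and a second one, on the same strand, begins 39 bases in. In Mcm5 the match begins 153 bases before the start and overlaps another on the opposite strand at 149 bases before it. Mcm6 held 3 matches, the nearest 47 bases before the start, and Mcm7 held 1 in the transcript, at base 17, and 1 at 165 bases before the start. A match of letters is a description and does not show that a factor binds there.

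Helicase activation held Mcm10 and Gins3, which had the highest differences with a pseudocount of 1, whereas E2f2 exceeded both with a pseudocount of 0.1 (0.95, against 0.84 for Mcm10 and 0.87 for Gins3) and exceeded Gins3 with TPM. The median of the role was 0.41, above the 0.39 of the origin recognition complex, an order that turned at a mean FPKM of at least 5, with 0.32 and 0.51. Mcm10, a scaffold that helps the active helicase leave the origin and recruits polymerase alpha, was at 9.47 and 17.0 FPKM, a difference of 0.78 that exceeded that of 96.6% of measured genes. Mcm10 (ENSMUSG00000026669) lies on chromosome 2 at 4989714 to 5012791 of GRCm38, on the minus strand. Gins3, a subunit of the GINS complex that links the helicase to the leading-strand polymerase, was at 1.85 and 3.47 FPKM (0.65), so that the ratio of the FPKM values was 1.88 at a low level. It lies on chromosome 8 at 95633453 to 95645060, on the plus strand.

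The other subunits were spread. Gins1 was at 16.9 and 24.2 FPKM (0.49), Gins4 at 22.8 and 26.3 FPKM (0.20) and Gins2 at 9.50 and 8.56 FPKM (-0.13). Gins2 shares 67.3% of its exonic bases with Gse1 on the opposite strand, which was at 7.36 and 5.61 FPKM, and how reads were divided between them was not tested. Within GINS, the order Gins3, Gins2, Gins1, Gins4 from low to high held in both libraries, with a highest-to-lowest ratio of 12.3 in the control and 7.58 with H19. Cdc45, the third partner of the active helicase, was at 6.36 and 8.20 FPKM (0.32).

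The promoters of Gins3 and Mcm10 differ in what they hold. The RefSeq start of Gins3 is base 95633559, inside the GENCODE gene span given above, and the 250 bases before it had 2 CCAAT boxes, the site of NF-Y, then 1 E2F match and 1 CHR element (TTTGAA, the cell cycle genes homology region bound by the DREAM and MuvB complexes). Those of Mcm10 had 2 CCAAT boxes and no match to the other motifs. Another CCAAT box of the Mcm10 promoter begins at base 32 of the transcript, outside the bases shown. Capitals mark all matches on either strand.
Gins3 (chr8:95633309-95633558, plus strand): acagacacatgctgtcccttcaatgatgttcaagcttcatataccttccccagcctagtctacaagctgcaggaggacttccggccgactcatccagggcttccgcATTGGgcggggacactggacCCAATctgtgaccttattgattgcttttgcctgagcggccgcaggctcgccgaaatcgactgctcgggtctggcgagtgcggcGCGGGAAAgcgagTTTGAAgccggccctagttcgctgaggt
Mcm10 (chr2:5012792-5013041, minus strand): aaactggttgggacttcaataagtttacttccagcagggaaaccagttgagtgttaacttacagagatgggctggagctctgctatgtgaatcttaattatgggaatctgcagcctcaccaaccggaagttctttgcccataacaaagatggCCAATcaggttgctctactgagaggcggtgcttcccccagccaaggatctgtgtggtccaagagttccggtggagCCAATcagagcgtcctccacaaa

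**Figure D2:**
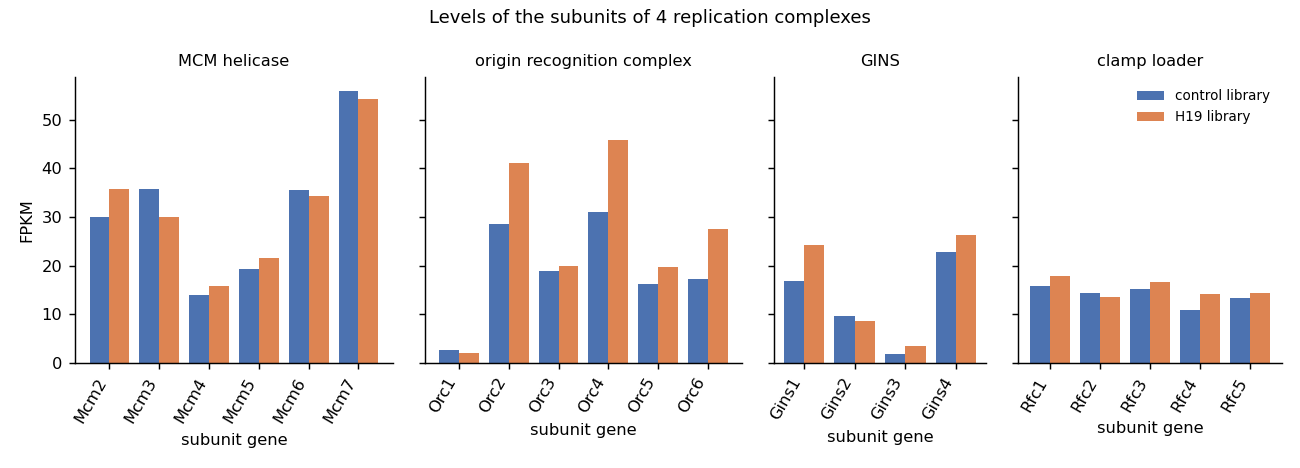
FPKM of the subunit genes of the MCM ring, the origin recognition complex, GINS and the clamp loader in the control library (blue bars) and the H19 library (orange bars), from 0 on a shared axis, with 1 library per group. The MCM bars are nearly level within each gene, Orc2, Orc4, Orc6 and Gins1 are taller in the H19 library, and the 5 clamp loader genes lie within a narrow range, from 10.9 to 17.8 FPKM.

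Polymerases and primase make the new strands. All 6 genes were higher in the H19 library by small amounts, with a median difference of 0.22, except that Pola1 was below 0 with the median of all genes set to 0, with TPM and with equal upper quartiles. Prim1, the catalytic subunit of the primase that lays down RNA primers, was at 28.0 and 39.8 FPKM (0.49). Its partner Prim2 was at 13.4 and 14.8 FPKM (0.14). Pola1, the catalytic subunit of polymerase alpha that extends the primer, was at 7.99 and 8.19 FPKM (0.03), the smallest difference of the 48 genes, and its accessory subunit Pola2 was at 16.4 and 20.3 FPKM (0.29). The 4 genes of this complex summed to 65.8 and 83.2 FPKM, mostly through Prim1. Pold1, the catalytic subunit of the lagging-strand polymerase delta, was at 12.7 and 15.8 FPKM (0.30), and Pole, that of the leading-strand polymerase epsilon, was at 12.3 and 13.4 FPKM (0.11).

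Pcna, the sliding clamp that holds polymerases on DNA, was at 101 and 121 FPKM (0.27), the highest level among the 48 genes in each library. Pcna and Tyms have annotated pseudogenes, so their values are uncertain where copies share reads. Only pseudogenes named after a gene were looked for, so copies of the other genes under other names may exist. The loader that places the clamp is encoded by Rfc1 to Rfc5, which lay close together, with a highest-to-lowest ratio of 1.46 in the control and 1.32 with H19. Rfc4 had the highest difference of the role, at 10.9 and 14.1 FPKM (0.35), and Rfc2 the lowest, at 14.4 and 13.5 FPKM (-0.09). Rfc4 shares 12.7% of its exonic bases with Eif4a2 on the opposite strand, which was at 137 and 177 FPKM (0.37). Whether reads of Eif4a2 entered the Rfc4 value was not tested. Rfc1 was at 15.8 and 17.8 FPKM (0.16), Rfc3 at 15.2 and 16.5 FPKM (0.11) and Rfc5 at 13.3 and 14.3 FPKM (0.10), of which Rfc3 and Rfc5 were below 0 with equal upper quartiles. The median difference of the clamp and its loader was 0.13.

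RPA coats the exposed single strand. Rpa3 was at 17.2 and 24.4 FPKM (0.48), Rpa2 at 6.02 and 7.90 FPKM (0.34) and Rpa1, the large DNA-binding subunit, at 20.7 and 22.8 FPKM (0.13). All 3 were thus higher in the H19 library, and Rpa2 was the lowest subunit in both.

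The genes that finish lagging-strand fragments split. Fen1, the nuclease that removes the displaced primer flap, was at 24.1 and 37.3 FPKM, a difference of 0.61 that was 0.55, under the 1.5-fold rule, with TPM. Lig1, the ligase that seals the nick, was at 15.1 and 12.7 FPKM (-0.23). The ratio of Fen1 to Lig1 was 1.59 in the control and 2.92 with H19. Fen1 (chromosome 19, 10199132 to 10204169, minus strand) shares 78.8% of its exonic bases with an antisense gene, Gm10143, which was at only 0.251 and 0.552 FPKM. It shares 5.37% with Tmem258 on the opposite strand, which was at 44.1 and 42.2 FPKM. How reads were divided between these genes was not tested.

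Nucleotide synthesis split as well. Tyms, thymidylate synthase, was at 30.9 and 43.8 FPKM (0.49). Tk1, thymidine kinase of the salvage route, was at 29.8 and 28.2 FPKM (-0.08), so the ratio of Tyms to Tk1 was 1.04 in the control and 1.55 with H19. Rrm2, the regulated subunit of ribonucleotide reductase and the second highest of the 48 genes in the H19 library, was at 51.9 and 56.4 FPKM (0.12), and Rrm1, its large subunit, was at 25.8 and 24.1 FPKM (-0.09). The median difference of the 4 genes was 0.02 and was below 0 with the median of all genes set to 0, with TPM and with equal upper quartiles.

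Chromatin assembly factor 1 deposits histones behind the fork. Chaf1a, its large subunit, was at 10.2 and 14.7 FPKM (0.49) and Chaf1b, a WD-repeat subunit, at 13.0 and 11.8 FPKM (-0.13). Their ratio was 0.783 in the control and 1.24 with H19, so their order was the other way round. Chaf1a shares 52.5% of its exonic bases with Ubxn6 on the opposite strand, which was at 16.3 and 16.6 FPKM.

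Cyclin E and E2F, which open S phase, had opposite signs within each pair. Ccne1, cyclin E1, was at 3.48 and 2.34 FPKM, and its difference of -0.42 was the lowest of the 48 genes and exceeded that of 10.8% of measured genes. Ccne2, cyclin E2, was at 2.83 and 4.39 FPKM (0.49), so the ratio of Ccne1 to Ccne2 was 1.23 in the control and 0.535 with H19. Both are low genes, whose differences depend on the pseudocount. Ccne2 shares 17.4% of its exonic bases with Ints8 on the opposite strand, which was at 13.3 and 12.2 FPKM. Whether reads of Ints8 entered the Ccne2 value was not tested. E2f1, an activating E2F, was at 11.5 and 9.08 FPKM (-0.31), and E2f2, another activating member, at 1.20 and 2.41 FPKM (0.63). E2f2 was the lowest of the 48 genes in the control library, and with no pseudocount its ratio was 2.01. E2f1 exceeded E2f2 by 9.54 times in the control and by 3.76 times with H19. The median difference of the 4 genes, 0.09, turned to -0.0051 with equal upper quartiles, and at a mean FPKM of at least 5 only E2f1 was left.

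**Figure D3:**
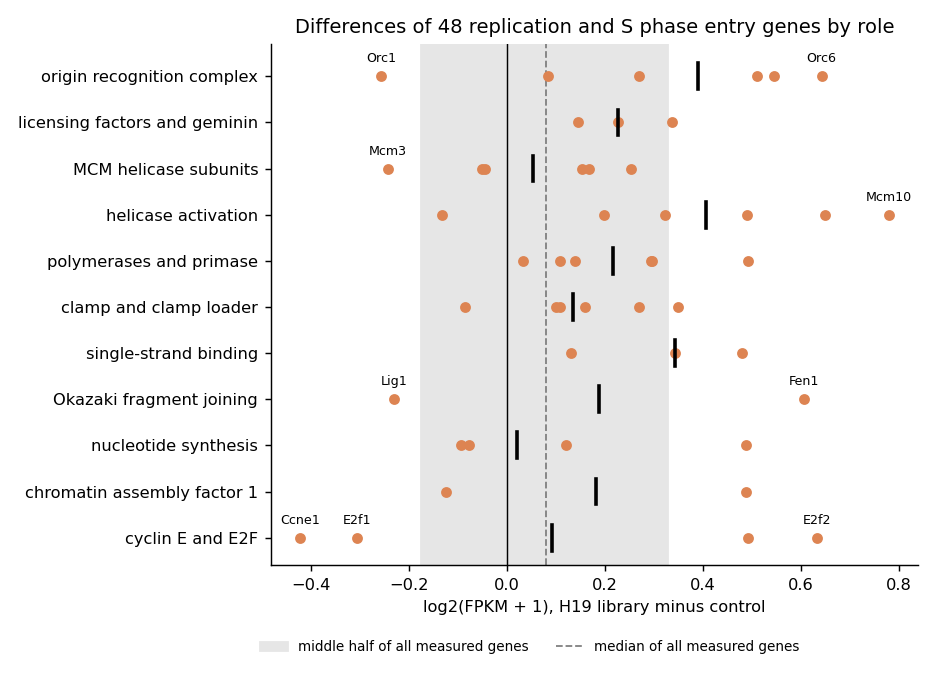
Difference in log2(FPKM + 1), H19 library minus control, of each of the 48 genes (orange points) by role, with the median of a role as a black bar, the middle 50% of all measured genes shaded grey and their median dashed. Helicase activation and the origin recognition complex have medians of 0.41 and 0.39, while cyclin E and E2F hold points on both sides, from -0.42 for Ccne1 to 0.63 for E2f2.

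The authors' deposited table of differences lists 561 of 21145 genes, or 2.65%, and none of the 48 is among them. Its entries had log2 ratios of at least 1.00 in size in the authors' deposited table, and E2f2, with its ratio of 2.01, is not in it.

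Of a further 89 genes of the same pathway, listed by function, 87 were measured. Their median difference was 0.16, 56 (64.4%) were higher, and the 1.5-fold rule was passed by 11 (12.6%) upward and by 2 downward. Of all measured genes, 58.9% were higher, and 8.99% passed that rule upward and 6.21% downward. Among 15 other initiation and fork factors, 13 were higher and 3 at least 1.5-fold so. These included Recql4, a helicase needed for initiation, at 4.95 and 9.06 FPKM (0.76), and Wdhd1, which ties polymerase alpha to the helicase, at 4.97 and 8.20 FPKM (0.62). Topbp1, an initiation and checkpoint scaffold, was lowest at 26.7 and 24.9 FPKM (-0.10), followed by the checkpoint mediator Clspn at 4.17 and 4.08 FPKM (-0.02).

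Among 15 further polymerase, clamp and Okazaki fragment genes, 10 (66.7%) were higher, beside 58.9% of all measured genes. Pole3, a small subunit of polymerase epsilon, was at 17.0 and 27.2 FPKM (0.64), and the nuclease Dna2 at 3.07 and 4.29 FPKM (0.38). Pold4, a small subunit of polymerase delta, was at 41.7 and 30.0 FPKM (-0.46), and Rnaseh2c, of ribonuclease H2, at 30.0 and 26.0 FPKM (-0.20). Of 12 other nucleotide supply genes, 8 were higher and 3 at least 1.5-fold so. Dut, which removes dUTP, was at 49.9 and 83.5 FPKM (0.73), beside Dctd, dCMP deaminase, at 9.54 and 7.99 FPKM (-0.23) and Samhd1, which breaks down dNTPs, at 9.95 and 9.42 FPKM (-0.07).

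Of 11 other chromatin replication genes, 8 (72.7%) were higher in the H19 library, beside 58.9% of all measured genes. Slbp, which binds the stem-loop of histone messages, was at 33.7 and 54.0 FPKM (0.66) and the histone chaperone Asf1b at 10.8 and 15.9 FPKM (0.52). The histone-binding proteins Rbbp7, at 83.2 and 67.3 FPKM (-0.30), and Rbbp4, at 31.9 and 26.6 FPKM (-0.25), were lower. Rbbp4 is the third subunit of chromatin assembly factor 1, so that complex held 1 gene higher and 2 lower. The 6 genes for turnover of licensing factors lay between Ddb1, at 376 and 329 FPKM (-0.19), and Rbx1, at 37.7 and 42.3 FPKM (0.16), both of cullin ubiquitin ligases, with Cul4a at 56.3 and 52.6 FPKM (-0.09) and Fzr1 at 14.3 and 16.0 FPKM (0.15).

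Regulators of S phase entry had no common direction. Of 14 cyclins, kinases and other activators, 6 (42.9%) were higher and 8 lower, with a median of -0.07. Of all measured genes, 58.9% were higher and 41.1% lower. Ccna2, cyclin A2, was at 31.3 and 56.6 FPKM (0.83) and Skp2, which targets the inhibitor p27 for degradation, at 5.37 and 9.26 FPKM (0.69). Tfdp2, a dimer partner of E2F factors, was at 13.8 and 6.07 FPKM (-1.07), and Ccnd1, cyclin D1, at 288 and 237 FPKM (-0.28). Of 14 measured inhibitors, 7 were higher and 7 lower, with a median of -0.0011. Cdkn2d was at 8.07 and 13.4 FPKM (0.66) and the repressive E2f4 at 26.4 and 37.5 FPKM (0.49), while the pocket protein Rbl2 was at 8.48 and 4.87 FPKM (-0.69) and Cdkn2a at 42.7 and 33.7 FPKM (-0.33). Tfdp2 and E2f6 were the 2 genes of these lists in the authors' deposited table.

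Genes of the later steps of the cycle stood higher than those of replication. The 39 listed mitosis genes all had positive differences, 25 of them (64.1%) past the 1.5-fold rule, with a median of 0.71 and a range from 0.04 to 1.34, beside 5 of 48 and a median of 0.18 for the replication genes. The highest were Cdca8, of the chromosomal passenger complex, at 15.2 and 39.8 FPKM (1.34) and Birc5, survivin, at 40.3 and 89.9 FPKM (1.14), and the lowest were Kif23 at 24.9 and 27.5 FPKM (0.13) and Bub3 at 29.4 and 30.3 FPKM (0.04). Of all measured genes, 58.9% were higher and 8.99% passed the 1.5-fold rule upward. Among 35 genes of DNA repair and its checkpoints the median was 0.24. Of the 35, 26 (74.3%) were higher and 9 (25.7%) passed the 1.5-fold rule upward. Among them were Rad9a, of the checkpoint clamp, at 26.6 and 67.1 FPKM (1.31) and the mismatch repair gene Pms2 at 8.63 and 17.5 FPKM (0.94), and, on the lower side, Brca1 at 13.1 and 9.27 FPKM (-0.46). With 1 library per group, the gap between the lists was not tested.

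**Figure D4:**
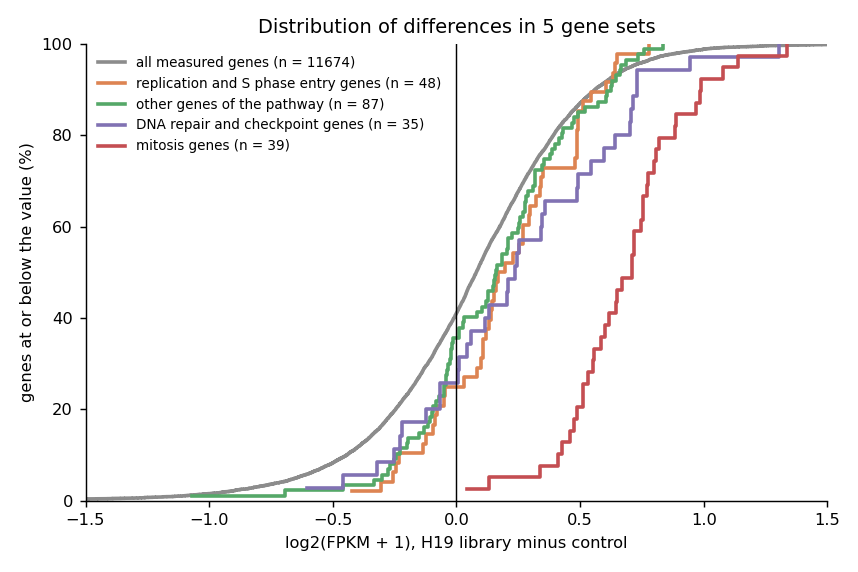
Share of genes (%) at or below each difference in log2(FPKM + 1), H19 library minus control, for all 11674 measured genes, the 48 replication and S phase entry genes, 87 other genes of the pathway, 35 DNA repair and checkpoint genes and 39 mitosis genes; the axis is cropped at -1.5 and 1.5. The replication curve runs slightly to the right of all measured genes over most of its length, while the whole mitosis curve lies above 0, with its median at 0.71.

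Promoter motifs were unevenly spread over the lists. An E2F match was present in 14 of 39 replication genes with a promoter (35.9%), in 4.96% of 8470 measured genes and in 1 of 34 mitosis genes (2.94%). A CHR element was present in 5 of 39 replication genes (12.8%), in 14.1% of measured genes and in 25 of 34 mitosis genes (73.5%). CCAAT boxes were present in 61.5%, 44.0% and 79.4% of them, in that order. Over all 27025 genes of the RefSeq promoter table the shares were 2.60% for E2F, 20.2% for the CHR element and 41.1% for CCAAT. Of the other genes of the pathway, 27.4% held an E2F match and 21.9% a CHR element, and of the 25 repair genes with a promoter 6 (24.0%) and 1.

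The 14 replication genes with an E2F match were Cdc6, Cdt1, E2f2, Gins3, Lig1, Mcm3, Mcm5, Mcm6, Mcm7, Orc1, Orc3, Pola1, Pold1 and Rfc3. Their median difference was 0.10, with 9 of 14 higher and 2 past the 1.5-fold rule, from -0.26 for Orc1 to 0.65 for Gins3. The 25 with a promoter and no match had a median of 0.29, with 20 higher and 3 at least 1.5-fold. Over all measured genes the medians were in the opposite order, 0.1359 for the 420 with a match, of which 268 were higher and 47 past the rule, and 0.0789 for the 8050 with none, of which 4732 were higher and 722 past it. In both groups of members a promoter can lie wholly within the gene span, as do that of the Lig1 match and that of E2f1. Its bearing on these medians was not tested. The windows of the E2F matches of Orc1 and Lig1, the lower genes of their roles, read as follows, with the match in capitals.
Orc1 (chr4:108579416-108579445, plus strand): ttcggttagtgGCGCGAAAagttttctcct
Lig1 (chr7:13278841-13278870, plus strand): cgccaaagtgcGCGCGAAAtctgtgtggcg

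The 5 replication genes with a CHR element, Cdc45, E2f2, Fen1, Gins3 and Mcm2, were all higher in the H19 library, with differences from 0.25 to 0.65 and a median of 0.61. Fen1, Gins3 and E2f2 were among them, so 3 of the 5 genes past the 1.5-fold rule held the element, beside 153 of 769 (19.9%) measured genes past that rule. With the median of all genes set to 0 or with equal upper quartiles these 3 were under the rule and Mcm10, which has no CHR match, alone passed it. The 34 with a promoter and no CHR element had a median of 0.15, and 24 were higher, 2 of them, Mcm10 and Orc6, at least 1.5-fold. Over all measured genes the medians were 0.1171 with the element and 0.0767 with none. Of these genes 61.7% and 58.6% were higher, and 12.8% and 8.47% passed the 1.5-fold rule, in that order. With 5 genes and 1 library per group this is a description of these promoters. For each gene 1 element is shown, in capitals, because most of the mitosis genes hold the same motif.
Cdc45 (chr16:18811946-18811973, minus strand): ttggaaacacaTTCAAAtaatgtgtgac
E2f2 (chr4:136180740-136180767, plus strand): tagcctgtgtgTTTGAAtggtgtggaac
Fen1 (chr19:10204501-10204528, minus strand): acgcgaaggttTTCAAAgtgcaccctgt
Gins3 (chr8:95633520-95633547, plus strand): gggaaagcgagTTTGAAgccggccctag
Mcm2 (chr6:88898834-88898861, minus strand): gggctcagcctTTTGAAagctgtgggcg

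Counted from the RefSeq start, the element of Gins3 lies 28 bases before it, that of E2f2 31 bases, that of Mcm2 70 bases and that of Fen1 124 bases before it, and the one shown for Cdc45 begins at base 11 of the transcript. Another CHR match of Cdc45, not shown, lies 240 bases before the start. The element of Fen1 belongs to a RefSeq start at base 10204393, outside the GENCODE gene span given above. The promoter of its other RefSeq start, at base 10203921, held no CHR match. In E2f2 the CHR element belongs to a RefSeq start at base 136180782, within the gene, and the E2F match to another at base 136172274. In Gins3 both lie in the same promoter, the E2F match at 41 bases before the start.

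**Figure D5:**
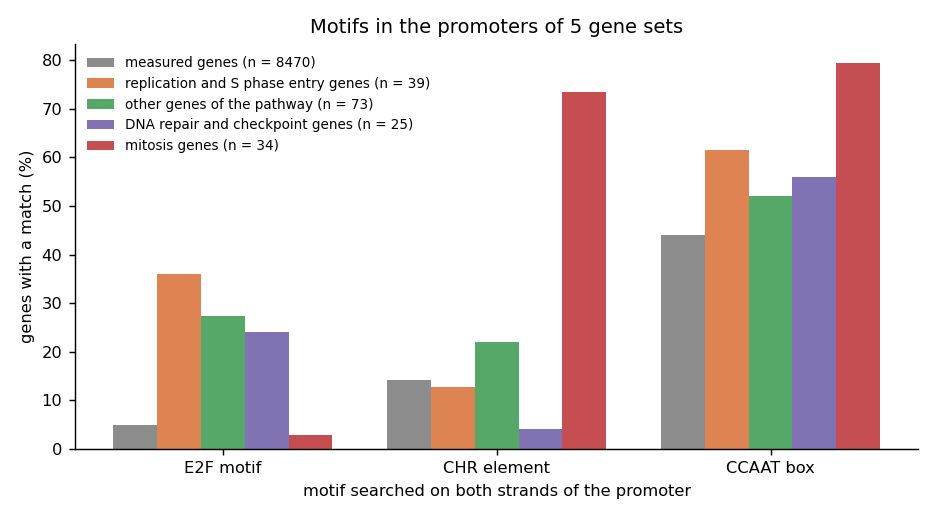
Share of genes (%) whose RefSeq promoter holds an E2F motif, a CHR element or a CCAAT box on either strand, for 8470 measured genes and 4 gene lists, with the number of genes with a promoter in the legend. The replication and S phase entry genes stand at 35.9% for E2F and 12.8% for CHR, and the mitosis genes at 2.94% and 73.5%.

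The label of a hepatocyte was checked against markers. Keratins 8 and 18 were at 909 and 658 and at 743 and 609 FPKM, and Hnf4a, a hepatocyte transcription factor, at 74.4 and 44.4 FPKM, but albumin (Alb) was at 0.990 and 0.178 FPKM, transthyretin (Ttr) at 0.785 and 0.290 and Apoa1 at 0.0382 and 0.116. Apob was at 108 and 104 FPKM, Trf at 182 and 125 and Serpina1a at 2.12 and 0.192. All 6 measured hepatocyte markers of 9 were lower in the H19 library, with summed levels of the 9 of 2020 and 1541 FPKM. Most of these sums came from keratins 8 and 18. Of 5 bile duct markers 4 were measured and 3 lower, with sums of 818 and 463 FPKM. Krt19 was at 382 and 219 FPKM, Spp1 at 389 and 222 and Krt7 at 39.7 and 10.6. Sox9 was higher, at 8.02 and 11.1 FPKM. Of stellate cell and fibroblast markers 1 of 8 was measured (sums of 3.88 and 1.28 FPKM), of endothelial markers 0 of 5 (0.469 and 0.314 FPKM), and of macrophage and leukocyte markers 3 of 6 (129.9 and 64.4 FPKM, nearly all Cd14, with Ptprc at 0.237 and 0.380). No listed marker in the table was at 0. Hepatocyte, bile duct and leukocyte marker sums were thus lower in the library in which most replication genes were higher, and their part in those differences was not tested.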

How the data were processed

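RNA of 2 AML12 lines was sequenced, 1 library per group. CASAVA 1.4, TopHat2 and mm9 are named in the submitters' processing notes; which program made the FPKM, how strand was used and how differences were tested is not given in the sources used here. Per the file headers, the authors deposited FPKM for each library and in a joint table, with identical values for 21145 genes. Their deposited table of differences holds FPKM, a log2 ratio, a p-value and a q-value, of which its gene list and log2 ratios were used. GENCODE M21 (GRCm38) holds 21017 of the gene identifiers, and its coordinates and exons are given here.

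Nothing was tested, since each group is a lone library. A pseudocount of 1 was added to each FPKM, and thresholds of 1.5-fold and 2-fold were applied where the mean over both libraries reached 1 FPKM. Lists were summarised by counts and medians beside all measured genes. Members and lists were chosen with earlier results of these data known. All members are named. Of each other list the 2 highest and 2 lowest measured genes are named, except 2 genes that are not reported here; Nif3l1, Gse1, Gm10143 and Ubxn6, which overlap members, and E2f6 and Rbbp4 as comparisons, were chosen after their values were seen. Exons were compared with those of other genes, and 18 members share exonic bases with one.

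Results were recomputed with a pseudocount of 0.1 or 0.01, with no filter or a minimum of 5 FPKM, with TPM, with the median difference set to 0, with equal upper quartiles, from the per-library tables, with the mean of the list and, chosen after seeing the data, without members that share exons. The steps were tested on simulated data. Read totals cannot be had from the deposited FPKM, so no interval is given, and low genes rest on few reads. Python 3.11.15, numpy 2.4.6, pandas 2.3.3, scipy 1.17.1 and matplotlib 3.10.9 were used.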

Additional observations from a re-analysis of the deposited data

How the results depend on the processing

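No paired analysis was possible because there is 1 library per group. No member reached 2-fold in either direction under any alternative, and 0 were at least 1.5-fold lower. The count at least 1.5-fold higher, 5 of 48, was 3 of 42 at a mean FPKM of at least 5, 3 of 30 without members that share exonic bases with another gene (chosen after seeing the data), 1 with the median of all measured genes set to 0 and 1 with equal upper quartiles; the gene left by both scalings was Mcm10, at 0.70 and 0.67. The count was 6 with a pseudocount of 0.1 and 6 with 0.01, where Ccne2 also passed (0.61 and 0.63), and 4 with TPM. These scalings gave 710 and 633 genes at least 1.5-fold higher and 952 and 1026 lower among all measured genes, and TPM 1051 and 1168, in place of 1050 and 725. Equal upper quartiles moved the median of all measured genes from 0.08 to -0.0226 and that of the members from 0.18 to 0.0723. The number of members higher in the H19 library was 35 with the median set to 0, 35 with TPM and 32 with equal upper quartiles, in place of 36. Of all measured genes, 5837 of 11674, 6640 of 12741 and 5513 of 11674 were higher, in that order, in place of 6877. Orc3, Pola1, Rfc3 and Rfc5 changed sign with equal upper quartiles, and Pola1 also with the other 2 scalings. Single members moved by 0.1 or more on the log2 scale in 42 of 48 cases with equal upper quartiles, 5 with a pseudocount of 0.01, 4 with 0.1 and 1 with TPM; the filters and the per-library tables cannot move a member, and a median of 0 shifts all alike. Beyond these scalings and filters the causes were not tested. E2f2, Gins3, Orc1, Ccne1, Ccne2 and Cdc6 were under 5 FPKM in both libraries, where the difference depends on the pseudocount, as for E2f2 with 0.63, 0.95 and 1.00 at pseudocounts of 1, 0.1 and 0.01.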
